A study of Saccharomyces cerevisiae with 4 samples.

Results

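The genes examined here encode the proteasome of Saccharomyces cerevisiae. They are the ORFs of the deposited table whose standard symbol starts with PRE, PUP, RPN or RPT and a digit, together with SCL1, and there are 34 of them among 6260 ORFs. Of the 34, 14 belong to the core particle (PRE, PUP and SCL1) and 20 carry an RPN or RPT name and are grouped as the regulatory particle. RPN4 and RPN14 fall under the symbol rule but encode no subunit, which leaves 32 subunit genes. The 34 genes lie on 13 of the 16 nuclear chromosomes, and none overlaps its neighbouring gene in the RefSeq R64 gene table.

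Each of 4 strains, labelled as lacking 1 transcription factor gene of sulfur metabolism (met28, met31, met32 or cbf1), was hybridised together with wild type on 2-colour arrays. The second channel is labelled "wt+met" for met28 and cbf1 and "wt" for met31 and met32, so arrays within each pair may share wild-type RNA and cannot be taken as independent of each other. Cultures were grown in YNB at 30 °C to an OD600 of 0.8 to 1.0, from colonies picked on plates with G418, an antibiotic used to select marked deletions. The labels give at least 2 biological samples per strain but not whether the strains are single clones, and 1 column of values per strain is used here. There is therefore no replicate spread, no test and no p-value for any difference, and the number of arrays limits the precision.

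Each value is a signed number taken to be a log ratio whose base is not given in the sources used here. An exact 0 was treated as not measured. The ratio probably has the deletion strain on top, since the deleted gene ranked lowest on the met28 array (-1.29), the fifth lowest on met31 (-0.320) and the fourth lowest on cbf1 (-0.995). On the array labelled met32 MET32 had a value of 0.012, so neither that label nor its direction is borne out, and its values are given as deposited. The median of all measured ORFs was 0.0015 on met28, -0.002 on met31, -0.002 on met32 and -0.034 on cbf1. The cbf1 shift equals 1.08-fold if the values are log10 ratios and 1.02-fold if they are log2 ratios, and cbf1 values below are also read against that median.

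The proteasome degrades proteins marked with ubiquitin. Its core particle is a barrel of stacked alpha and beta rings, with the cutting sites inside the beta rings. The regulatory particle caps the barrel, and consists of a base, whose ring of ATPases unfolds substrates, and a lid, which removes ubiquitin. In budding yeast the transcription factor Rpn4 activates most proteasome genes together through a shared promoter element, and is itself a short-lived substrate of the proteasome, which makes a feedback loop.

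The median of the proteasome genes lay close to that of all measured ORFs on every array. A distance of 0.1 from the array median, chosen after the data were seen, is 1.26-fold on a log10 scale or 1.07-fold on a log2 scale. Within it were 90.6% of the proteasome genes against 75.4% of all measured ORFs on met28, and 100% against 88.7% on met31. On cbf1 the shares were 78.8% against 63.9%, whereas on the array labelled met32 they were 79.4% against 85.2%. As deposited, the proteasome median was 0.002 on met28 (32 genes measured), 0.0035 on met31 (32 genes), -0.0105 on the array labelled met32 (34 genes) and -0.019 on cbf1 (33 genes). Relative to the median of all measured ORFs, these medians differed by 0.0005, 0.0055, -0.0085 and 0.015. Proteasome genes above 0 numbered 17 of 32 on met28, 19 of 32 on met31, 16 of 34 on met32 and 14 of 33 on cbf1, against 50.7%, 48.3%, 48.8% and 37.1% of all measured ORFs.

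**Figure D1:**
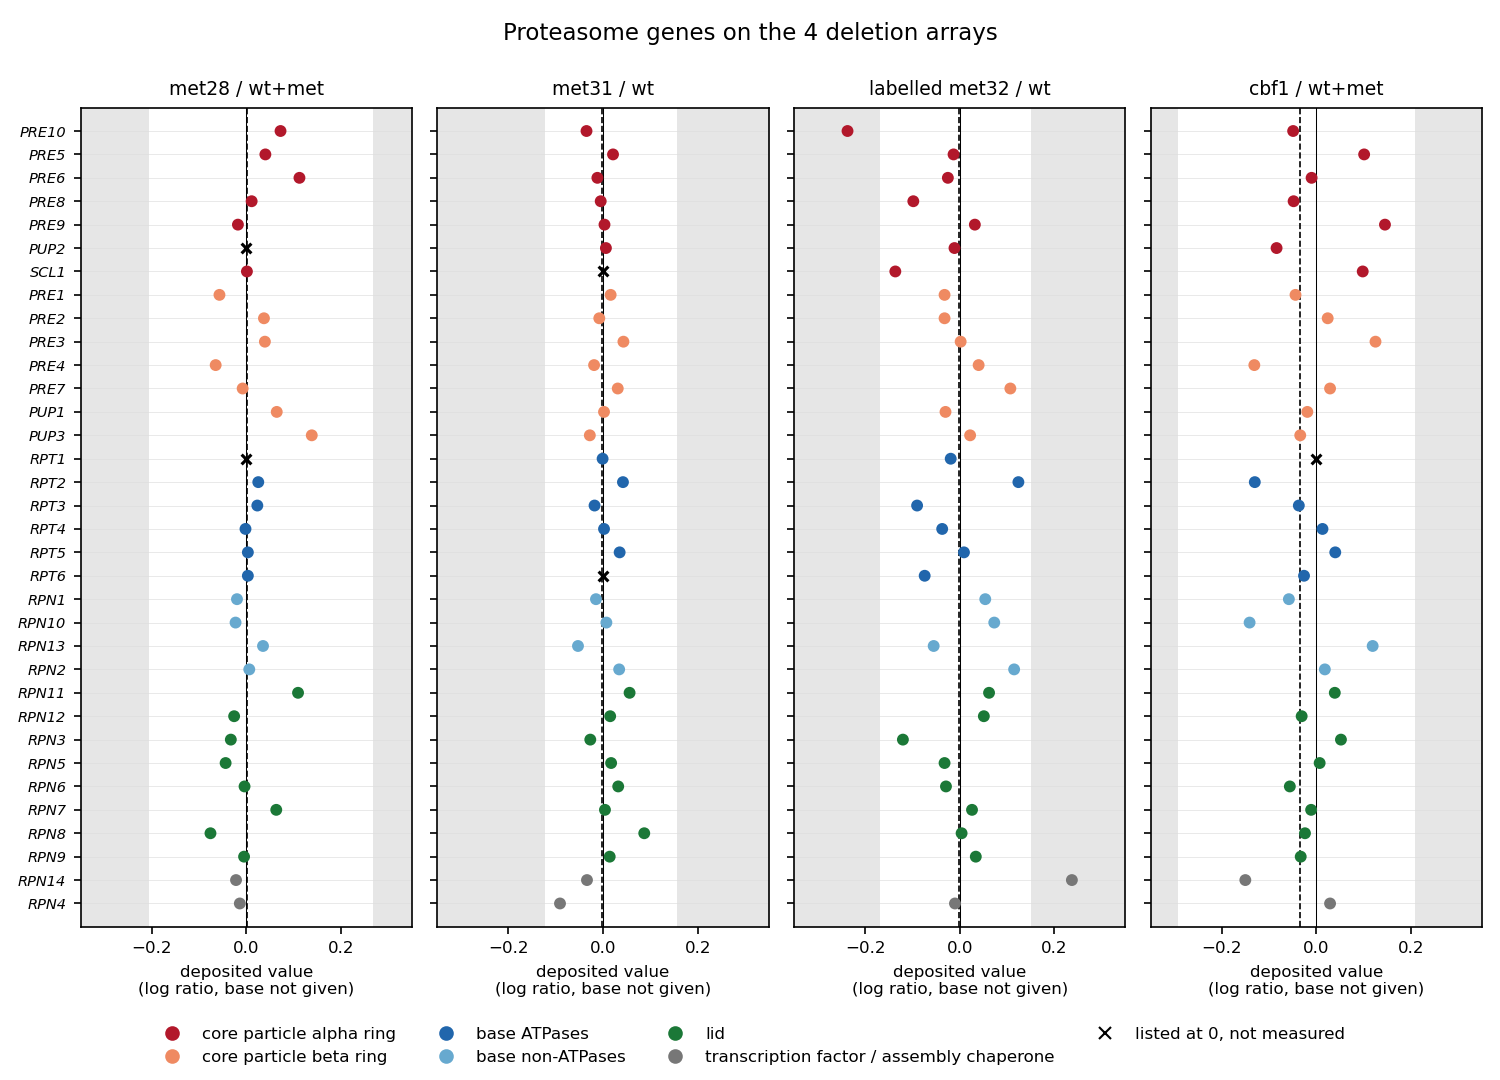
Each row is a proteasome gene and each panel an array, headed by the labels of its 2 channels, and the horizontal axis is the deposited value, a log ratio of unstated base. Grey areas are the lowest and highest 2.5% of all measured ORFs, the dashed line is the array median and crosses are genes listed at 0. PRE10 and RPN14 on the array labelled met32 are the 2 values inside a grey area.

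Very few proteasome genes were at the extremes of an array. The highest and lowest 2.5% of the measured ORFs were counted as extremes. On met28, 0 proteasome genes were in the highest and 0 in the lowest, where all measured ORFs gave 2.52% and 2.54%. The counts were also 0 and 0 on met31 (2.51% and 2.55% of all ORFs) and on cbf1 (2.51% and 2.51%). The array labelled met32 had 1 in the highest, RPN14, and 1 in the lowest, PRE10, against 2.58% and 2.52%. In a set of 34, such percentages amount to about a single gene at each end, so these counts do not set the proteasome genes apart. A fixed distance of more than 0.1 from the array median, chosen after the data were seen, was also used. By it, 3 genes lay above and 0 below on met28 (13.2% and 11.4% of all measured ORFs), and 0 above and 0 below on met31 (6.96% and 4.33%). There were 4 above and 3 below on met32 (7.28% and 7.57%), and 5 above and 2 below on cbf1 (17.7% and 18.4%).

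Proteasome genes were also less spread than the measured ORFs as a whole on 3 of the arrays. Their robust SD (the scaled median absolute deviation) was 0.0393 on met28, against 0.0778 for all measured ORFs. It was 0.0297 against 0.0519 on met31, and 0.0578 against 0.110 on cbf1. On the array labelled met32 it was 0.0645, against 0.0608 for all ORFs, so there the proteasome genes spread as widely as other genes. The number between the array's quartiles was 23 of 32 on met28, 26 of 32 on met31, 18 of 34 on met32 and 22 of 33 on cbf1, where all measured ORFs gave 50.6%, 50.4%, 50.3% and 50.4%. Genes for the cytosolic ribosomal proteins, another large complex, had robust SDs of 0.0430 on met28, 0.0252 on met31, 0.0526 on met32 and 0.0682 on cbf1. A narrow spread was thus also seen for that complex on met28, met31 and cbf1. On met32 its spread was slightly narrower than that of all ORFs (0.0526 against 0.0608), unlike that of the proteasome genes. Channel intensities, on which the spread of a log ratio can depend, were not used here, and their part in the result was not tested.

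The proteasome genes were also compared from array to array. Over the arrays on which it was measured, the distance between a gene's largest and smallest value had a median of 0.1125 over the 34 genes. The 30 genes measured on all 4 arrays had a median of 0.1135, against 0.154 for the 4661 ORFs measured on all 4. The distance was 0.1 or less, a limit also chosen after the data were seen, for 11 of those 30 genes, against 1167 of the 4661 ORFs. With the met32 sign turned, these medians were 0.1255 and 0.160. The distance was then 0.1 or less for 12 of the 30 genes, against 1025 of the 4661 ORFs. As deposited, RPN14 (0.387) and PRE10 (0.309) had the largest distances, and with the sign turned PRE10 (0.286) and RPN14 (0.215) did. RPT1 had the smallest (0.018, or 0.020 with the sign turned), from only 2 measured values. Counted from each array's median, 14 of the 34 genes were farthest out on the array labelled met32, 10 on cbf1, 7 on met28 and 3 on met31. In units of each array's robust SD, which differs between arrays, the counts were 16, 7, 7 and 4 in that order. The same counts were not made over all ORFs, so it is not known whether the proteasome genes differ in this.

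Core particle and regulatory particle genes were compared on each array, as a description without a test. On met28 the median was 0.037 over 13 core genes and -0.004 over 19 regulatory genes, a difference of 0.041. On met31 it was 0.002 over 13 core genes and 0.007 over 19 regulatory genes, a difference of -0.005. On the array labelled met32 it was -0.019 over 14 core genes and 0.0065 over 20 regulatory genes, a difference of -0.0255, or 0.0255 with the sign turned. On cbf1 it was -0.0145 over 14 core genes and -0.024 over 19 regulatory genes, a difference of 0.0095. The values of both groups overlapped on every array. With means in place of medians, the difference was 0.0283 on met28, -0.0455 on met32 and 0.0274 on cbf1, so which array had the widest gap depended on this choice.

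**Figure D2:**
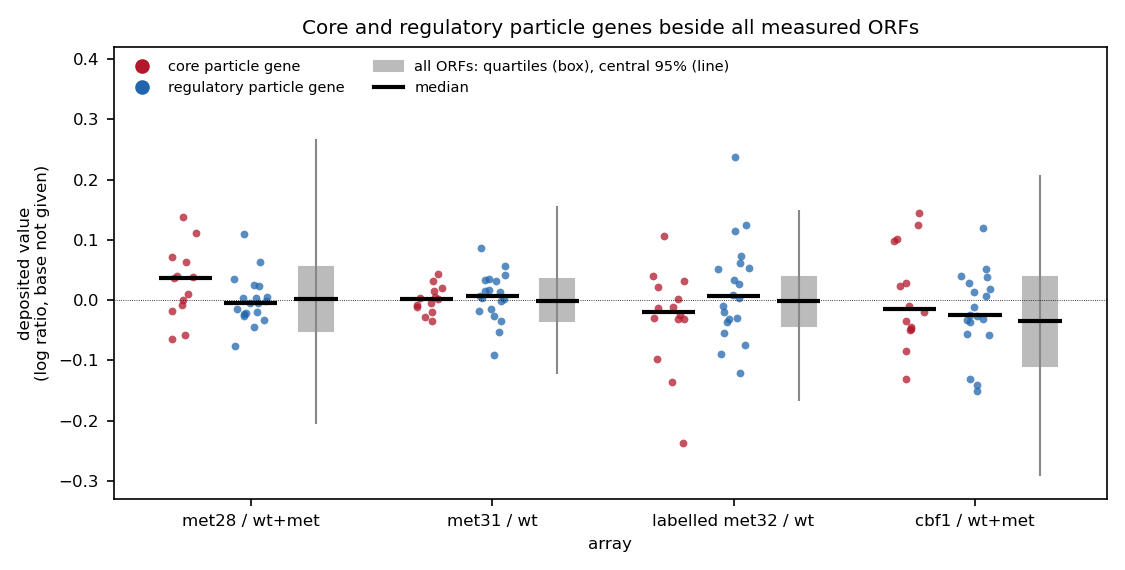
Points are single core particle (red) and regulatory particle (blue) genes on each array, with horizontal jitter for visibility and the deposited log ratio on the vertical axis. Grey boxes and lines show the quartiles and the central 95% of all measured ORFs, and black bars are medians. The gap between the red and blue medians is wider on met28 (0.037 and -0.004) than on the other arrays, and the points of both colours overlap on each.

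The alpha ring forms the gated entrance of the core particle. SCL1, its subunit gene outside the PRE and PUP names, was at 0.001 on met28, -0.136 on met32 and 0.098 on cbf1, and was listed at 0 on met31. PRE10 was at 0.072 on met28, -0.035 on met31, -0.237 on met32 and -0.049 on cbf1. The met32 value of PRE10 stood apart from its other 3, lay at percentile 0.893 of that array, and corresponds to 1.73-fold on a log10 scale or 1.18-fold on a log2 scale. PRE9, which encodes the alpha subunit that yeast can live without, was at -0.018, 0.003, 0.032 and 0.145 on met28, met31, met32 and cbf1. Its cbf1 value was the highest of any proteasome gene on that array, at percentile 93.6.

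PRE6 was at 0.112 on met28, with -0.012, -0.025 and -0.010 on met31, met32 and cbf1. PRE5 was at 0.040, 0.021, -0.013 and 0.101 on the 4 arrays in that order. PRE6 was thus highest on met28 and PRE5 on cbf1. PRE8 was at 0.011, -0.005, -0.098 and -0.048. PUP2 was listed at 0 on met28 and was at 0.006 on met31, -0.011 on met32 and -0.084 on cbf1. On the array labelled met32, 6 of the 7 alpha genes were below 0, as were 3013 of 5882 measured ORFs, and the alpha median was -0.025. On met28, 5 of 6 measured were above 0, against 50.7% of all measured ORFs, with a median of 0.0255. With the met32 sign turned, the alpha median there would be on the same side of 0 as on met28.

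The beta ring holds the 3 protease sites, which are formed by the products of PRE3, PUP1 and PRE2. PRE3, for the site that cuts after acidic residues, was at 0.039 on met28, 0.043 on met31, 0.002 on met32 and 0.125 on cbf1. PUP1, for the trypsin-like site, was at 0.064, 0.002, -0.030 and -0.019. PRE2, for the chymotrypsin-like site, was at 0.037, -0.008, -0.032 and 0.024. None of these catalytic subunit genes was in an extreme of any array, and the farthest out was PRE3 on cbf1, at percentile 91.6.

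Among the non-catalytic beta genes, PUP3 was at 0.138 on met28, the highest proteasome gene there (percentile 91.1), and at -0.028, 0.022 and -0.034 on met31, met32 and cbf1. PRE4 was at -0.065, -0.019, 0.040 and -0.131, and was the lowest core gene on both met28 and cbf1. PRE7 was at -0.008, 0.031, 0.107 and 0.029, and PRE1 at -0.057, 0.016, -0.032 and -0.044. PUP3 and PRE4 thus lay at opposite ends of the beta ring on met28. The beta ring medians were 0.037, 0.002, 0.002 and -0.019, within 0.027 of the alpha ring medians on every array.

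The ATPases of the base form the ring that unfolds substrates and threads them into the core. RPT1 was listed at 0 on met28 and cbf1 and was at -0.001 on met31 and -0.019 on met32, so it has values on the 2 arrays with the "wt" label only. RPT2, whose product helps to open the gate of the core, was at 0.025 on met28, 0.042 on met31, 0.124 on met32 and -0.130 on cbf1. It was the most variable ATPase gene. RPT3 was at 0.023, -0.018, -0.090 and -0.037, RPT4 at -0.002, 0.002, -0.037 and 0.013, and RPT5 at 0.003, 0.035, 0.009 and 0.040. RPT6 was listed at 0 on met31 and was at 0.003 on met28, -0.074 on met32 and -0.026 on cbf1. On met28 the 5 measured ATPase genes lay between -0.002 and 0.025, the narrowest range of any substructure on that array.

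The base also holds scaffold proteins and ubiquitin receptors. RPN1 and RPN2 encode the large scaffold subunits. RPN1 was at -0.020, -0.015, 0.054 and -0.058 on met28, met31, met32 and cbf1, and RPN2 at 0.006, 0.034, 0.115 and 0.018. RPN10 and RPN13 encode ubiquitin receptors. RPN10 was at -0.023, 0.007, 0.073 and -0.141, and RPN13 at 0.035, -0.053, -0.055 and 0.119. On cbf1 the receptor genes were thus apart from each other, RPN13 at percentile 90.8 and RPN10 at percentile 16.8, neither of them in an extreme.

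The lid contains the deubiquitinase Rpn11 and scaffold subunits around it. SEM1, which encodes a small lid subunit, has no RPN name. It was placed in the associated protein list, so the lid counts and medians leave it out. SEM1 was at -0.059, 0.056, -0.05 and 0.036 on met28, met31, met32 and cbf1. RPN11 was at 0.109 on met28, 0.056 on met31, 0.062 on met32 and 0.039 on cbf1. All 4 values were above 0 as deposited, as were all 4 of PRE3, RPN2 and RPT5, and the share over all ORFs was not counted. RPN11 lay at percentiles 87.8, 83.5 and 84.2 on met28, met31 and met32 and at the upper quartile of all measured ORFs (0.039) on cbf1. With the sign turned, the met32 value would be -0.062. RPN8, whose product pairs with Rpn11, was at -0.076, 0.087, 0.004 and -0.024. It was the lowest proteasome gene on met28 and the highest on met31. RPN3 was at -0.033, -0.027, -0.120 and 0.052.

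The remaining lid genes lay within narrower limits than RPN3 and RPN8. RPN5 was at -0.044, 0.017, -0.032 and 0.007 on met28, met31, met32 and cbf1, and RPN6 at -0.004, 0.032, -0.029 and -0.056. RPN7 was at 0.063, 0.004, 0.026 and -0.011, RPN9 at -0.005, 0.014, 0.034 and -0.033, and RPN12 at -0.026, 0.015, 0.051 and -0.031. On met31, 7 of the 8 lid genes were above 0, with a median of 0.016, beside 48.3% of all measured ORFs above 0. On met28, 2 of 8 were above 0, with a median of -0.0155, beside 50.7% of all measured ORFs above 0.

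**Figure D3:**
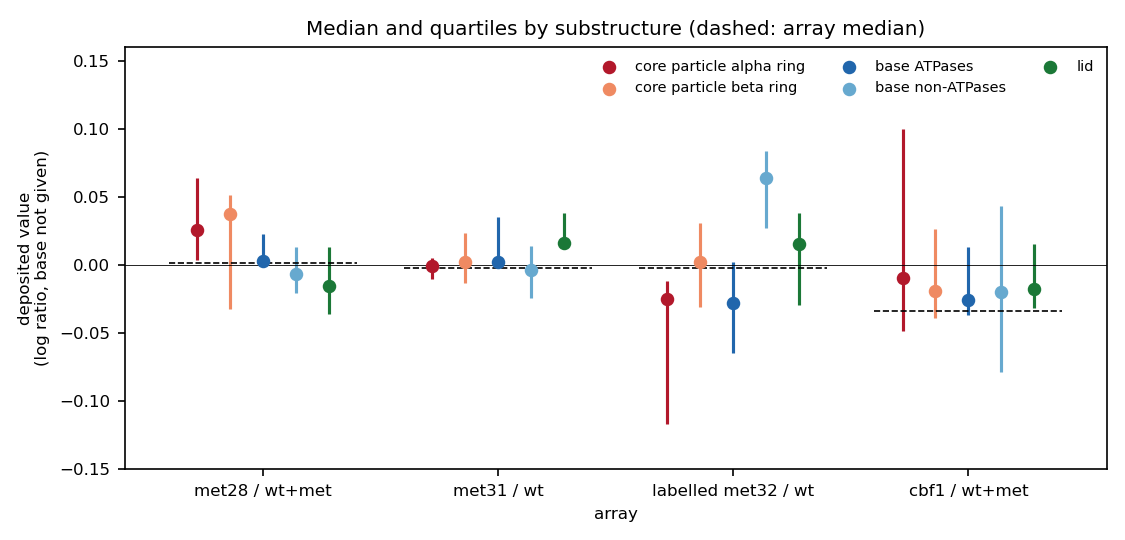
Points are the medians of the measured genes of each substructure on each array and vertical lines their quartiles, in deposited log ratio units on the vertical axis. Dashed lines are the medians of all measured ORFs. The base non-ATPases on the array labelled met32 (median 0.0635, 4 genes) lie farthest from their array's median.

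RPN4, the gene of the transcriptional activator, was at -0.014 on met28, -0.091 on met31, -0.010 on met32 and 0.029 on cbf1. Its met31 value was the lowest of all proteasome-named genes on that array, at percentile 5.75. There, 19 of the 30 measured subunit genes were above 0, against 48.3% of all measured ORFs, with a median of 0.005. RPN14, which encodes a chaperone for assembly of the base, was at -0.022, -0.034, 0.237 and -0.150. It had both the highest value of any member on the array labelled met32, at percentile 99.6, and the lowest on cbf1, at percentile 14.8. With the met32 sign turned, RPN14 would be at -0.237 there and the lowest member on both arrays. The genes on either side of RPN14 were at 0.099 (COG7) and 0.029 (CDH1) on the met32 array, and those beside PRE10 were at 0.089 (PRT1) and -0.077 (PIP2). None of these 4 neighbours, which were chosen after the values were seen, was in an extreme there.

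Proteins that work beside the proteasome were examined as 4 further lists. Each extreme held 2.51% to 2.58% of all measured ORFs, depending on the array, and counts in the lists were not tested. Of the assembly factor genes, 0 of 7 measured were in an extreme on met28, 1 of 7 on met31, 0 of 8 on met32 and 0 of 7 on cbf1. That gene was ADD66, a chaperone gene for the core particle, at -0.153 on met31, with 0.011 on met28, 0.008 on met32 and -0.198 on cbf1. The list median was 0.042, -0.022, 0.0145 and -0.089 on met28, met31, met32 and cbf1. On cbf1 that is 0.055 below the median of all ORFs, with 5 of 7 genes below it, whereas the proteasome genes were 0.015 above it. Other large values on that array were POC4 at 0.144 and NAS6 at -0.130, both chaperone genes. On met32, NAS6 was at 0.133 and PBA1 at -0.127. PBA1 was listed at 0 on the other arrays.

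The associated protein list, with 7 genes measured on every array, had 3 values in an extreme, counted over both ends of the 4 arrays. Each single extreme of an array held 2.51% to 2.58% of all measured ORFs. BLM10, which encodes an alternative cap of the core particle, was at 0.084 on met28, 0.175 on met31, -0.285 on met32 and 0.167 on cbf1. It was in the highest 2.5% on met31 and in the lowest 2.5% on met32, and with the met32 sign turned it would be above 0 on all 4. CIC1, whose product has been linked to both the proteasome and ribosome biogenesis, was at -0.308 on cbf1, in the lowest 2.5%, and at -0.060, 0.056 and -0.017 on met28, met31 and met32. SPG5 was at 0.157 on cbf1, and ECM29, a gene for a protein that tethers core and regulatory particles, at -0.101 on both met31 and cbf1. The list medians were 0.036, 0.029, -0.035 and -0.030.

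The ubiquitin and Cdc48 list had no gene in an extreme on any array, where each extreme held 2.51% to 2.58% of all measured ORFs. Of its 16 genes, 15, 14, 14 and 15 were measured on met28, met31, met32 and cbf1. Its medians were 0.008, 0.0085, -0.013 and -0.029. UBC5, a ubiquitin-conjugating enzyme gene, was at 0.219 on met28, and NPL4, a Cdc48 cofactor gene, at 0.149 on met28, 0.127 on met31 and 0.120 on cbf1. SHP1, another Cdc48 cofactor gene, was at -0.162 on cbf1, and DDI1, a ubiquitin receptor gene, at -0.106 on met31.

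Among genes for factors known to control RPN4 or its product, 1 value stood far out. PDR3, a zinc-cluster activator gene for drug resistance, was at -0.724 on cbf1, at percentile 0.121, against -0.046 on met28 and -0.028 on met31, and was listed at 0 on met32. RPN4 itself was at 0.029 on that cbf1 array, at percentile 71.9. PDR1, the paralog of PDR3, was at -0.022, -0.008, 0.073 and 0.081, the oxidative stress factor gene YAP1 at 0.007, -0.008, -0.047 and -0.086, and the heat shock factor gene HSF1 at 0.040, 0.005, 0.084 and -0.042. The medians of the 6-gene list were 0.0235, -0.008, 0.017 and -0.035.

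**Figure D4:**
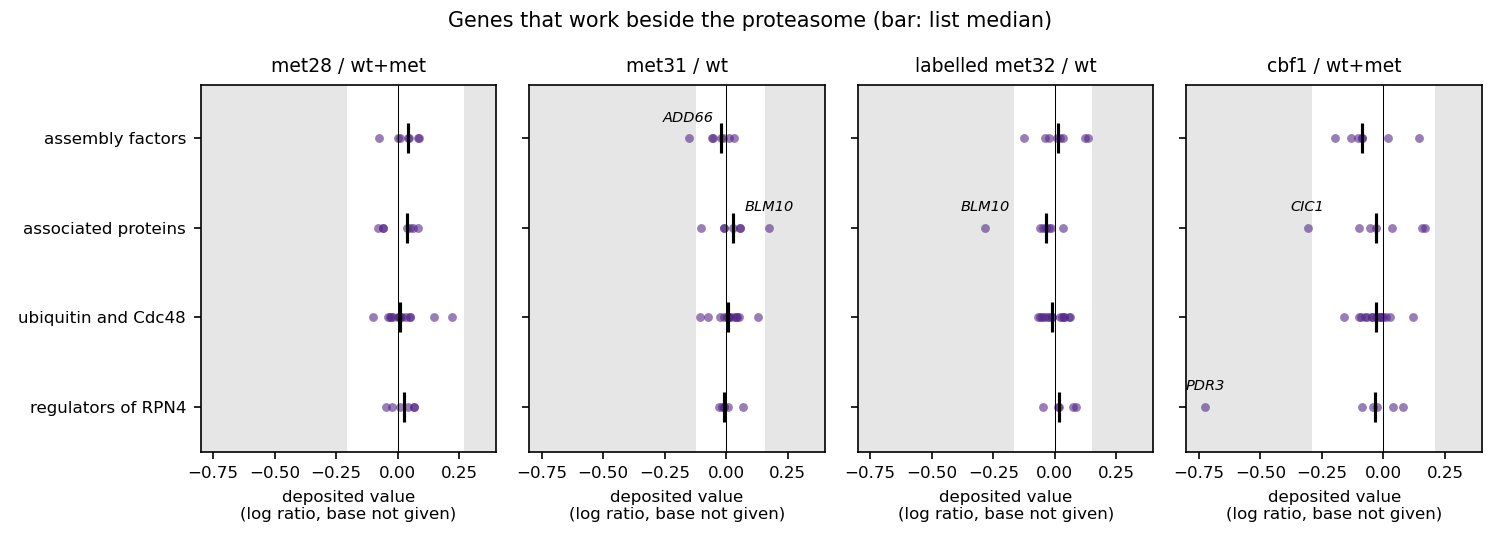
Points are single genes of 4 lists, with the deposited log ratio on the horizontal axis, 1 panel per array, and black bars for list medians. Grey areas are the lowest and highest 2.5% of all measured ORFs. The named genes are those in a grey area, with PDR3 at -0.724 on cbf1 the farthest out.

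Proteasome genes were seldom listed at 0. This was so for 5 of their 136 values (3.68%), namely PUP2 and RPT1 on met28, SCL1 and RPT6 on met31, and RPT1 on cbf1, against 10.5% of all values and 8.54% of those of the 5774 ORFs in the RefSeq table. Across the 4 arrays, the ORFs outside the rule whose values lay nearest to the median profile of 28 subunit genes were ATG3, HIR3, CQD2, NSG1 and YFR024C, at distances of 0.0912 to 0.224 robust SDs among 4661 ORFs. All had small values, as in ATG3 with 0.004, 0.001, 0.003 and -0.012.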

How the data were processed

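RNA, extracted with hot phenol, was labelled with Cy3 or Cy5 by direct incorporation, per the labels' protocols. The authors deposited 1 signed score per ORF and strain, with at most 3 decimals. The log base, background correction, normalization, treatment of dyes and any averaging over cultures are not known from the labels or the table, and depth does not apply. Symbols came from the RefSeq R64 gene table, which lists 5774 of the 6260 ORFs. Python 3.11.15, pandas 2.3.3 and numpy 2.4.6 were used. An exact 0 was listed 1018, 367, 378 and 877 times on met28, met31, met32 and cbf1, against means of 27.8, 51.0, 43.9 and 19.4 for the values next to it, and was set to missing. Medians, quartiles, ranks and robust SDs (1.4826 times the median absolute deviation) were computed on each array. Only the medians and the counts around 0 and in the extremes were checked, on shuffled deposited values with a known shift added. The named genes are all members, SEM1, the members of each neighbouring list in an extreme or with the largest absolute values, and the 5 ORFs nearest to the subunit profile by Euclidean distance. The members and lists were chosen with earlier results of these data known. Promoter motifs were not analysed here. Alternatives covered zeros, centring, scaling, means, complete ORFs, other thresholds, non-subunits and the met32 sign.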

Additional observations from a re-analysis of the deposited data

Results flagged for a closer look

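RPN14 was at 0.237 on the array labelled met32 and at -0.034 on met31, so an extreme value on one was on the other side of 0 on the array with the same wild-type label. ADD66 was at -0.153 on met31 and at 0.008 on met32, and BLM10 at 0.175 on met31 and at -0.285 on met32. With 1 column per strain none of these differences was tested. The direction of the met32 array is not settled, and turning its sign would by construction put these genes on the same side of 0 on both arrays, and PRE10 (-0.237 on met32 and -0.035 on met31) on opposite sides.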

How the results depend on the processing

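The medians of all proteasome genes, of the core and of the regulatory particle stayed within the binomial interval over members under each alternative tried. So did the medians of the 4 neighbouring lists (32 values). For the lists of 8 or fewer genes, however, the interval ran from the lowest to the highest member. A mean of the same genes cannot leave that range, so staying inside was no check for those lists. The difference of core and regulatory medians was judged by a limit built from the widths of both intervals. That limit was so wide that even the turned met32 sign stayed inside. The intervals cover genes, not replicates. Scaled values were judged before the division, so they repeat the centred medians and the unchanged difference. The 92 values for these medians and this difference are thus not 92 separate checks. The medians were so near 0 that 9 of 88 values, the turned met32 sign aside, changed sign. These 9 include the cbf1 medians both as centred and as centred and scaled. After centring, the cbf1 medians were 0.015 (all), 0.0195 (core) and 0.010 (regulatory), and the mean of the core genes there was 0.00736. Over ORFs measured on all 4 arrays, the met32 median was 0.003 and the met31 core median -0.0015. Division by the robust SD cannot change a sign, and put these centred cbf1 medians at 0.137, 0.178 and 0.0911 robust SDs. The core minus regulatory difference changed sign only with the met32 sign turned, but its size moved: 0.027 (zeros counted) to 0.0425 (ORFs measured on all arrays) on met28, -0.012 (without RPN4 and RPN14) to -0.00443 (means) on met31, -0.0455 (means) to -0.0255 on met32, and 0.003 (zeros counted) to 0.0274 (means) on cbf1. Counts in the extremes did move on the array labelled met32. There, 2 genes were in the highest and 2 in the lowest 5%, 0 were in the highest 2.5% without RPN4 and RPN14, and 0 in the highest and 0 in the lowest without RPN14 and PRE10. Values more than 0.1 from the array median, a threshold chosen after seeing the data like the set without RPN14 and PRE10, were 4 above and 3 below on met32 (7.28% and 7.57% of all ORFs), 3 above on met28 (13.2%), and 5 above and 2 below on cbf1 (17.7% and 18.4%). No paired analysis was possible because each strain has 1 column. Signal over background was not used here, so dim spots could not be told from bright ones.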
